A study of Mus musculus with 24 samples.

Results

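Polycomb group proteins silence developmental genes by marking histones, and 10 of their genes were followed here across mouse embryonic fibroblasts that lack different histone H3 lysine 9 (H3K9) methyltransferases. The genes are *Ezh1*, *Ezh2*, *Eed*, *Suz12* and *Jarid2* of Polycomb repressive complex PRC2, and *Cbx2*, *Cbx7*, *Bmi1*, *Ring1* and *Rnf2* of complex PRC1. They were taken by symbol from the 47937 gene entries of the count table, each matched 1 Ensembl identifier, and 10 of 10 passed the filter on low counts. RNA was sequenced from 24 libraries, 3 biological replicates in each of 8 conditions.

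All cells descend from 1 clone of *Eset1*-conditional fibroblasts that was selected for high activity of a tamoxifen-inducible Cre recombinase, and after gene disruption a Cre construct was introduced again and held under puromycin selection. WT denotes this line without 4-hydroxytamoxifen (4-OHT), so the control carries the floxed *Eset1* (*Setdb1*) allele too. *E1* is the same line after 1 µM 4-OHT, which removes exons of *Eset1*. *E2* is a clone with a frameshift in *Eset2* (*Setdb2*), kept without 4-OHT, and *E1E2* is that clone after 4-OHT. *E1E2 G9Gl* is a clone derived from it that also carries mutations of *G9a* (*Ehmt2*) and *Glp* (*Ehmt1*), and *6KO2* adds mutations of *Suv39h1* and *Suv39h2*, both after 4-OHT. *E1 S1S2* lacks *Eset1*, *Suv39h1* and *Suv39h2*, and *6KO1* is a clone of it in which *Eset2*, *G9a* and *Glp* were mutated as well, again after 4-OHT. Each mutant condition thus comes from 1 clone, while *6KO1* and *6KO2* are separate clones with the same genes mutated. In comparisons between clones, an effect of the genotype and a property of the clone cannot be told apart. *E1* against WT and *E1E2* against *E2* each stay within 1 clone. Titles of the samples were followed for 4-OHT, because the treatment field names it for every sample. By these titles, no line that kept *Eset1* was treated with 4-OHT. In comparisons of treated lines with WT or *E2*, effects of 4-OHT, Cre activity and *Eset1* loss thus cannot be told apart.

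PRC2 methylates lysine 27 of histone H3 through either of the catalytic subunits Ezh1 and Ezh2, which need the core subunits Eed and Suz12, and Jarid2 helps to bring the complex to chromatin. PRC1 ubiquitinates histone H2A through either of the E3 ligases Ring1 and Rnf2 (also called Ring1B) together with a Pcgf protein such as Bmi1. In canonical PRC1 a Cbx protein reads the PRC2 mark. In fibroblasts the system is best known for holding down the *Ink4a/Arf* locus and the transcription factor genes of other lineages.

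The upstream sequences of the 4 genes with the largest rises or with opposite changes between paralogs are shown first, as the 250 bases before the RefSeq start on GRCm38.p6, read 5′ to 3′ on the strand of the gene. Capitals mark the CpG dinucleotides, the sites of DNA methylation. The intervals are chr15:79932647-79932896 on the minus strand for *Cbx7*, chr17:34024681-34024930 on the minus strand for *Ring1*, chr1:151500992-151501241 on the minus strand for *Rnf2* and chr11:101226464-101226713 on the minus strand for *Ezh1*.
Cbx7: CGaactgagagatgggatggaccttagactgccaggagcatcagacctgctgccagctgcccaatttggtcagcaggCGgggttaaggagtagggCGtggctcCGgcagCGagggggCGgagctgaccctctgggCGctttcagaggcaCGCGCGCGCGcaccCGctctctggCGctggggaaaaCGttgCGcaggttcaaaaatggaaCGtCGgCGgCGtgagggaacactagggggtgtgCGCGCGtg
Ring1: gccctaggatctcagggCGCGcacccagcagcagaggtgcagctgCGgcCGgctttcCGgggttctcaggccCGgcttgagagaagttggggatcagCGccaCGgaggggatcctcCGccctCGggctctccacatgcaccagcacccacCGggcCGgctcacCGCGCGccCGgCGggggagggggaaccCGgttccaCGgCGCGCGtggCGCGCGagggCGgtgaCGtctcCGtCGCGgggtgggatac
Rnf2: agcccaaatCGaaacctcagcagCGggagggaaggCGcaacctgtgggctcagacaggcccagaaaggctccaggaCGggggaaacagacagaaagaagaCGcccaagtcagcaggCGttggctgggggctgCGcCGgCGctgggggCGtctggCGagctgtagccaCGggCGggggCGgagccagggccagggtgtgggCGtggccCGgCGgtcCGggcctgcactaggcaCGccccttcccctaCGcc
Ezh1: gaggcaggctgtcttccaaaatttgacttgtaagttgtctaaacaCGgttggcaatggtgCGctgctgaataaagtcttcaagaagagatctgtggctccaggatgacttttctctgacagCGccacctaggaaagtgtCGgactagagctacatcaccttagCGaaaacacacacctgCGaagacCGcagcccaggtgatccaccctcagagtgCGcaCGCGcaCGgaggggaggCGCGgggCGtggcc
The window of *Cbx7* held 23 CpG, that of *Ring1* 30, that of *Rnf2* 20 and that of *Ezh1* 14, against a median of 6 over 32851 RefSeq promoters of the same length. RefSeq entries were matched for 9 of the 10 genes, and their counts ranged from 12 in *Eed* to 37 in *Suz12*. Windows above that median belonged to genes that rose, that fell and that did not pass the test. An E2F-type motif, TTTGGCGC or TTTCCCGC on either strand, lay in 1.3% of all these windows and in that of 1 gene, *Suz12* (TTTCCCGC). The window of *Cbx7* lies inside the longer span that GENCODE gives the gene, chr15:79915807-79971119, which holds transcripts from other starts.

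The libraries held 24736829 to 37419071 counts, of which 19541909 to 31489070 were on genes. WT replicate 2 stood apart from the other WT libraries (chi-square per gene 64.6 and 54.0, against 4.82 between replicates 1 and 3), and the calls that it decides are given with it and without it. The counts check the genotypes only in part, because frameshifts and the loss of a few exons leave most of each transcript to be counted. *Setdb1* differed from WT by -0.57 in *E1* and by -0.31 in both *E2* and *E1E2* on the log2 scale. *Setdb2* differed by -1.36 to -1.55 in *E2* and the lines derived from it, and *Suv39h2* by 0.76 in *E1 S1S2*, where it is mutated, and by -1.47 in *E1E2 G9Gl*, where it is not. In *6KO1*, *E1E2 G9Gl* and *6KO2*, *Ehmt1* differed by -1.05, -1.40 and -0.95 and *Ehmt2* by -1.32, -1.69 and -0.56. In the lines that keep both, *Ehmt1* lay between -0.13 and -0.037 and *Ehmt2* between 0.29 and 0.65. *Suv39h1* differed by -1.14, -1.73 and -0.81 in *E1 S1S2*, *6KO1* and *6KO2*, and by -0.47 in *E1E2 G9Gl*, where it is not mutated. Among 12 fibroblast markers *Col1a1* and *Vim* were abundant in every condition, *Lum* was at or near 0 throughout, and *Thy1* ranged from 0.0116 CPM (library counts scaled to a common total) in *6KO1* to 16.3 in *E1E2 G9Gl*, with 7.86 in WT. In bulk RNA, fewer cells with a transcript and less of it per cell cannot be told apart.

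Changes against WT were mixed in direction in every mutant. Calls come from edgeR's quasi-likelihood test at an adjusted p of at most 0.01, without a minimum fold. In *E1* 2 of 10 genes passed, against 13.3% of the 18565 genes tested. *Cbx7* rose there and *Rnf2* fell, where 6.72% of all genes were higher and 6.6% lower. *E1 S1S2* had 2 rises and 2 falls, with 41.8% of all genes called (19.9% higher, 21.9% lower). *6KO1* had 4 of each, with 66.3% called (35.9% and 30.3%), and *E2* 3 of each, with 26.9% called (12.5% and 14.4%). *E1E2* had 1 rise and 3 falls, with 33.1% called (16.3% and 16.9%). *E1E2 G9Gl* had 2 rises and 5 falls, with 59.1% called (30.9% and 28.3%), and *6KO2* had 3 rises and 5 falls, with 54.5% called (29.5% and 25%). With a 2-fold minimum the count was 1 for *E1* (4.26% of all genes), 0 for *E1 S1S2* (11.8%), 4 for *6KO1* (30.9%), 1 for *E2* (6.11%), 1 for *E1E2* (8.73%), 3 for *E1E2 G9Gl* (25.2%) and 2 for *6KO2* (20.7%). The median over the 10 genes lay between -0.22 in *6KO2* and 0.09 in *6KO1*, where the medians over all genes were 0.041 and 0.061. Without WT replicate 2 the counts of members called were 3 for *E1* (14% of all genes in that setting), 3 for *E1 S1S2* (38.5%), 10 for *6KO1* (64.6%), 5 for *E2* (23.5%), 4 for *E1E2* (29.9%), 7 for *E1E2 G9Gl* (57.7%) and 8 for *6KO2* (52.2%). All 7 comparisons share the WT libraries.

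**Figure D1:**
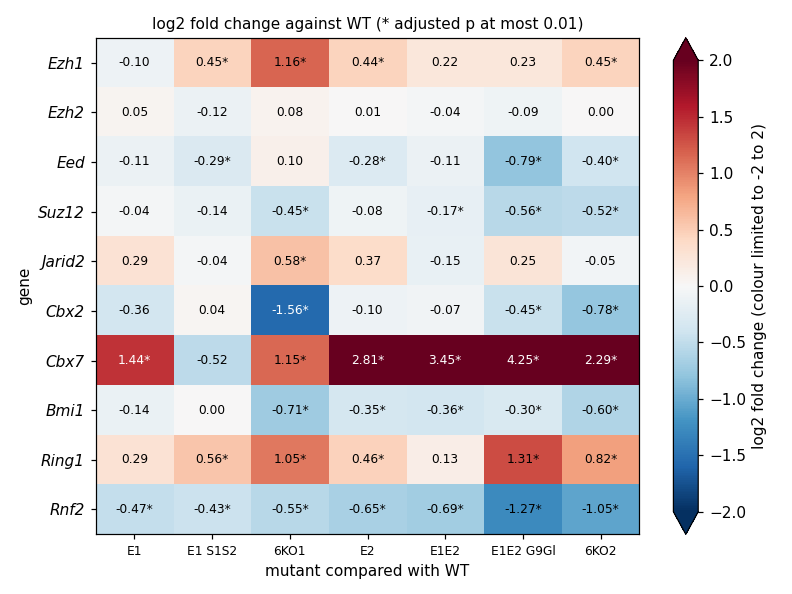
Log2 fold change of each of the 10 genes (rows) in each of the 7 mutants (columns) against WT, with red for higher, blue for lower and an asterisk where the adjusted p was at most 0.01. *Cbx7* passed as higher in 6 mutants and *Rnf2* as lower in 7, while *Ezh2* passed in 0.

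*Rnf2*, the E3 ligase gene with most of the RNA in these cells, fell in 7 of 7 mutants. WT libraries read 1964, 2729 and 2029 normalised counts (2241 ± 424.1, SD, n = 3). *E1E2 G9Gl* read 931.7, 914.8 and 934.8, and *6KO2* 991.8, 1129 and 1139. In *E1*, *E1 S1S2*, *6KO1*, *E2* and *E1E2* the means lay between 1385 and 1669. Every mutant library was below the lowest WT library, the highest of them reading 1717. On the log2 scale *E1E2 G9Gl* was at -1.27 from WT (SE 0.087, adjusted p = 7.8e-12), *6KO2* at -1.05 (SE 0.086, adjusted p = 3.8e-10) and the other 5 between -0.69 and -0.43. Without WT replicate 2, whose level was the highest, they were -1.11, -0.88 and between -0.53 and -0.26, and each still passed. In fits of only the 6 libraries compared, the calls in *E1* (-0.46, adjusted p = 0.0491) and *E1 S1S2* (-0.38, adjusted p = 0.0312) were lost, so 5 of the 7 held there. The exons of *Rnf2* share 158 bases (3.8%) with *Trmt1l* on the opposite strand, whose own log2 fold changes ran from -0.76 to 0.037, and although the library kit keeps strand, whether counting used it is not given in the sources used here. *Ezh2*, *Eed* and *Suz12* share 2.6% to 6.8% of their exons with opposite-strand genes that read 0.685, 8.79 and 3.46 normalised counts in WT.

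*Ring1*, the other ligase gene, moved the opposite way. It read 186.2, 175.9 and 167.4 normalised counts in WT. The *E1E2 G9Gl* libraries had 453.0, 428.2 and 428.2, those of *6KO1* 390.2, 369.8 and 335.9, and those of *6KO2* 293.7, 315.5 and 327.9. These 3 mutants lay above every WT library, by 1.31 (SE 0.095, adjusted p = 2.2e-11), 1.05 (SE 0.094, adjusted p = 8.2e-10) and 0.82 (SE 0.096, adjusted p = 1.1e-07) on the log2 scale. It also rose in *E1 S1S2* (0.56, adjusted p = 3.2e-05) and in *E2* (0.46, adjusted p = 6.8e-04), the latter not with only the 6 libraries compared (0.48, adjusted p = 0.0503). In *E1* the libraries read 225.0, 216.6 and 206.0, all above WT, but the change of 0.29 did not pass (adjusted p = 0.0364). *E1E2* overlapped WT, with 0.13 and an adjusted p of 0.304.

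Per kilobase of exon, the share of *Rnf2* in the summed RNA of both ligase genes was 90.7% ± 1.6 in WT and 62.5% ± 0.71 in *E1E2 G9Gl* (SD, n = 3). *6KO2* stood at 73.2% ± 0.57 and *6KO1* at 76.7% ± 1.8, and the other mutants between 82.3% and 85.5%. No mutant library reached the lowest WT library in this share (89.2%). With coding length in place of exon length the shares were 92.8% in WT and 68.8% in *E1E2 G9Gl*, so *Rnf2* held most of the ligase RNA in every condition by either length.

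*Cbx7*, which reads the PRC2 mark in canonical PRC1 and restrains the *Ink4a/Arf* locus, rose the most. WT libraries read 7.4, 8.16 and 8.97 normalised counts from raw counts of 7 to 9. *E2* read 57.9, 45.4 and 73.1, *E1E2* 92, 96.7 and 84.1, and *E1E2 G9Gl* 145.6, 180.2 and 147.9. The Suv39h mutant made from the last line, *6KO2*, read 40, 32.9 and 48.2. Along this series the folds over WT were 7 in *E2* (95% interval 4.99 to 9.83), 10.9 in *E1E2* (7.98 to 15), 19 in *E1E2 G9Gl* (14.1 to 25.6) and 4.88 in *6KO2* (3.41 to 6.99). The adjusted p was 2.2e-09, 1.5e-11, 1.5e-14 and 3.6e-08.

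In the Suv39h series *Cbx7* stayed low. *E1* read 20.4, 21.6 and 25.3 and *6KO1* 17.5, 16.4 and 21.4, above every WT library, with folds of 2.72 (1.84 to 4.03, adjusted p = 3.4e-04) and 2.22 (1.48 to 3.33, adjusted p = 7.9e-04). *E1 S1S2* read 6.99, 5.39 and 4.46, below every WT library, but the fold of 0.698 had an interval of 0.418 to 1.16 and did not pass (adjusted p = 0.306). *Cbx7* shares 100 exon bases (1.5% of its exons) with *Apobec3* on the opposite strand. *Apobec3* read 115 in WT, and its log2 fold change was -1.58 in *E1 S1S2*, between 0.25 and 0.28 in *E1* and *6KO2*, and 1.15, 1.11, 1.44 and 0.89 in *6KO1*, *E2*, *E1E2* and *E1E2 G9Gl*. Its part in the *Cbx7* counts was not tested.

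*Cbx2*, another chromodomain subunit of canonical PRC1, fell in 3 mutants. It read 426.3, 281.0 and 379.6 in WT, 147.5, 105.4 and 114.6 in *6KO1* and 196.1, 224.7 and 211.6 in *6KO2*. Both 6KO lines lay below every WT library, *6KO1* by -1.56 on the log2 scale (SE 0.13, adjusted p = 2.2e-10) and *6KO2* by -0.78 (SE 0.12, adjusted p = 9.6e-06). In *E1E2 G9Gl* the change of -0.45 passed (adjusted p = 0.00223) but was lost without WT replicate 1 (-0.32, adjusted p = 0.0243), without WT replicate 3 (-0.42, adjusted p = 0.0104) or without *E1E2 G9Gl* replicate 3 (-0.43, adjusted p = 0.0125), and with only the 6 libraries compared (-0.44, adjusted p = 0.0427). In *E1* it read 303.5, 296.9 and 246.1, and the change of -0.36 did not pass (adjusted p = 0.0353) except without WT replicate 2 (-0.51, adjusted p = 5.0e-04). The values in *E1 S1S2*, *E2* and *E1E2* lay within 0.1 of WT on the log2 scale (0.045, -0.099 and -0.071).

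Among the 5 chromodomain genes of PRC1, *Cbx6* carried most of the RNA per kilobase of exon, 62.5% ± 1.9 of the sum in WT and 53% to 67.2% in the mutants. *Cbx2* held 15.4% ± 1.1 in WT and 8.35% ± 0.84 in *6KO1*. *Cbx7* held 0.234% ± 0.043 in WT and 4.68% ± 0.54 in *E1E2 G9Gl*, so even at its highest it was a minor part of the family. With coding length the share of *Cbx6* in WT was 82.3% and that of *Cbx2* 6.51%, while *Cbx7* went from 0.264% to 5.53%.

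**Figure D2:**
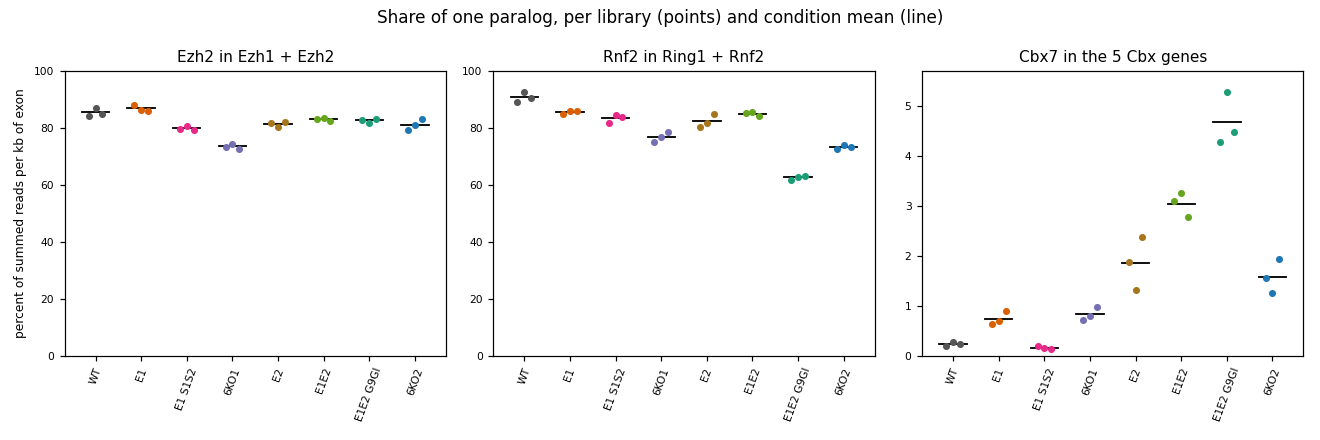
Share of *Ezh2* in *Ezh1* plus *Ezh2*, of *Rnf2* in *Ring1* plus *Rnf2*, and of *Cbx7* in the 5 *Cbx* genes, as percent of reads per kilobase of exon, with points for libraries and a line for the mean of 3. *Rnf2* fell from 90.7% in WT to 62.5% in *E1E2 G9Gl*, *Ezh2* from 85.4% to 73.4% in *6KO1*, and *Cbx7* did not pass 5.29% in any library.

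*Bmi1*, the Pcgf partner that stimulates the ligase, fell in 5 mutants. It read 2233, 3013 and 2523 in WT, 1574, 1569 and 1615 in *6KO1* and 1711, 1743 and 1685 in *6KO2*, which put *6KO1* at -0.71 (SE 0.074, adjusted p = 1.1e-08) and *6KO2* at -0.60 (SE 0.074, adjusted p = 2.8e-07) on the log2 scale. *E2*, *E1E2* and *E1E2 G9Gl* were close to each other, at means of 2027, 2016 and 2097 and log2 fold changes of -0.35, -0.36 and -0.30. All 5 lines lay below the lowest WT library. Without WT replicate 2, which was high for *Bmi1* too, these 5 values were -0.59, -0.47, -0.23, -0.24 and -0.18 and still passed. With only the 6 libraries compared, the calls in *E2* (-0.32, adjusted p = 0.0685), *E1E2* (-0.34, adjusted p = 0.0345) and *E1E2 G9Gl* (-0.29, adjusted p = 0.0387) were lost. *E1* (-0.14, adjusted p = 0.205) and *E1 S1S2* (0.0028, adjusted p = 0.991) did not pass.

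*Ezh2*, the catalytic subunit of dividing cells, changed little. WT libraries read 1823, 2116 and 1858 normalised counts, and the mutant libraries 1714 to 2093. It passed in 0 of 7 mutants, with adjusted p from 0.0539 to 0.968. The 95% intervals of the fold against WT together spanned 0.853 to 1.14. In *6KO1* the call depended on the setting, since the log2 fold change of 0.076 became 0.14 without WT replicate 2 (adjusted p = 0.00602) and 0.16 when only genes with a mean above 100 were kept (adjusted p = 0.00271).

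*Ezh1*, the subunit better known from resting cells, rose in 4 mutants. It read 377.6, 353.5 and 369.6 in WT and 830.1, 807.9 and 824.2 in *6KO1*, which is 1.16 on the log2 scale (SE 0.084, adjusted p = 2.1e-11). *E1 S1S2* read 513.7, 488.2 and 505.4, *6KO2* 560.6, 499.3 and 446.3, and *E2* 484.2, 550.2 and 457.7, at 0.45 (adjusted p = 1.0e-04), 0.45 (adjusted p = 8.3e-05) and 0.44 (adjusted p = 2.9e-04). Libraries of these 4 conditions all lay above WT, and the *E2* call was lost with only the 6 libraries compared (0.47, adjusted p = 0.0243). The values for *E1E2* (0.22) and *E1E2 G9Gl* (0.23) did not pass, with adjusted p of 0.0411 and 0.0257, although the latter passed at 0.29 when only genes with a mean above 100 were kept (adjusted p = 0.00604). *Ezh2* held 85.4% ± 1.4 of the RNA of this pair per kilobase of exon in WT and 73.4% ± 0.83 in *6KO1*, with 79.7% to 86.7% elsewhere.

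*Eed*, the core subunit that binds trimethylated lysine 27, fell most in *E1E2 G9Gl*. It read 1532, 1920 and 1595 in WT. The *E1E2 G9Gl* libraries had 951.0, 965.4 and 1002 and the *6KO2* libraries 1288, 1289 and 1258, so both mutants lay below every WT library. *E1E2 G9Gl* differed by -0.79 on the log2 scale (SE 0.076, adjusted p = 3.2e-09), *6KO2* by -0.40 (SE 0.075, adjusted p = 7.7e-05). Smaller falls in *E1 S1S2* (-0.29, adjusted p = 0.00197) and *E2* (-0.28, adjusted p = 0.00487) rested on single libraries. Without WT replicate 2 they were -0.19 (adjusted p = 0.0201) and -0.17 (adjusted p = 0.0428), and they were also lost without *E1 S1S2* replicate 3 (-0.27, adjusted p = 0.0131) or *E2* replicate 2 (-0.20, adjusted p = 0.0485), and both with only the 6 libraries compared (-0.25 each, adjusted p = 0.0544 and 0.155). In *6KO1* *Eed* read 1786, 1858 and 1786, which did not pass (0.10, adjusted p = 0.205) except without WT replicate 2 (0.21, adjusted p = 0.00598).

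*Suz12*, the scaffold of PRC2, had the highest level of the 10 per kilobase of exon and fell in both 6KO lines and in *E1E2 G9Gl*. WT read 5801, 6170 and 6067, *6KO1* 4391, 4415 and 4402, *E1E2 G9Gl* 3978, 4110 and 4109, and *6KO2* 4189, 4181 and 4240. Each of these was below every WT library, with log2 fold changes of -0.45, -0.56 and -0.52 (SE 0.046 each, adjusted p = 6.5e-09, 1.6e-10 and 1.2e-09). In *E1E2* a fall of 0.17 passed (adjusted p = 0.00333) but not without WT replicate 3, *E1E2* replicate 1 or *E1E2* replicate 3, where the adjusted p was 0.0122, 0.0138 and 0.0163 at the same -0.17, nor with no filter on low counts (-0.18, adjusted p = 0.0431) or only the 6 libraries compared (-0.16, adjusted p = 0.0984). In *E1 S1S2* the value of -0.14 did not pass (adjusted p = 0.013) except without WT replicate 1 (-0.16, adjusted p = 0.00814) and with DESeq2 (-0.12, adjusted p = 0.00681). *Jarid2*, which recruits PRC2, rose in *6KO1* only by this test. It read 303.6, 212.1 and 282.9 in WT and 463.5, 359.5 and 367.9 in *6KO1* (0.58, SE 0.11, adjusted p = 6.7e-05), but this call was lost with only the 6 libraries compared (0.57, adjusted p = 0.0155). In *E2* the value of 0.37 missed the threshold (adjusted p = 0.0137), but passed with DESeq2 (adjusted p = 0.00798), with no filter on low counts (adjusted p = 0.00724), without WT replicate 1 (0.47, adjusted p = 0.00351) and without *E2* replicate 1 (0.44, adjusted p = 0.00857).

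**Figure D3:**
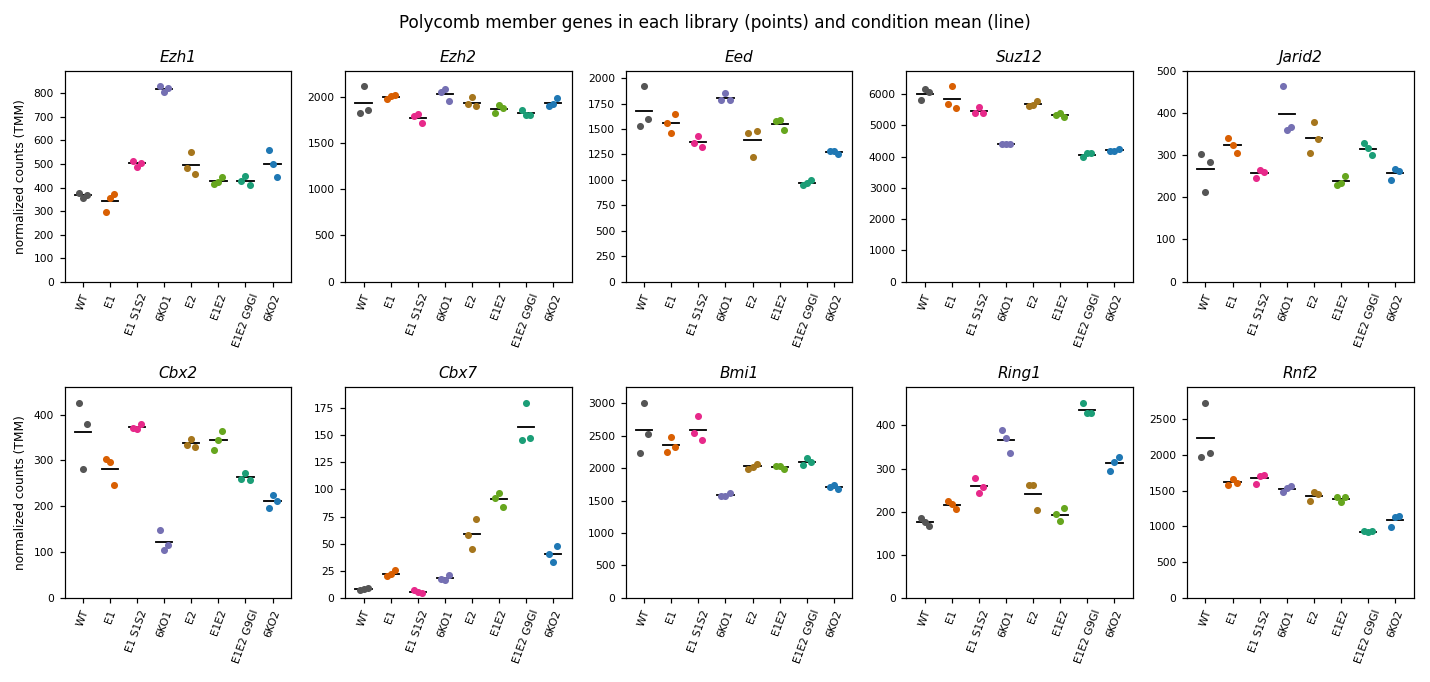
Normalised counts (TMM scaling, linear axes from 0) of each of the 10 genes in every library, with points for the 3 replicates of a condition and a line for their mean. *Cbx7* climbs from about 8.18 in WT to 157.9 in *E1E2 G9Gl*, *Rnf2* of WT (2241) lies above all mutants, and *Ezh2* stays between 1714 and 2116.

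With CPM divided by exon length in kilobases, the order of levels in WT was *Suz12* (48.4 ± 1.53), *Bmi1* (25.9 ± 3.95), *Rnf2* (21.6 ± 4.09), *Eed* (17.5 ± 2.16), *Ezh2* (11.5 ± 0.953), *Cbx2* (3.39 ± 0.693), *Ring1* (2.17 ± 0.116), *Ezh1* (1.96 ± 0.0657), *Jarid2* (1.09 ± 0.197) and *Cbx7* (0.0502 ± 0.00479). *Bmi1*, *Rnf2* and *Eed* kept this order in each of the 3 WT libraries, at 22.4, 18.9 and 15.9 in replicate 1, 30.2, 26.3 and 20 in replicate 2, and 25.3, 19.6 and 16.6 in replicate 3, although their ranges over the libraries overlapped. In *E1E2 G9Gl* the same measure gave 8.94 for *Rnf2* and 5.36 for *Ring1*, 10.1 for *Eed* and 0.969 for *Cbx7*. From the lowest to the highest condition mean *Ezh2* spanned 1.15-fold, *Suz12* 1.48-fold, *Ezh1* 2.4-fold, *Rnf2* 2.42-fold, *Ring1* 2.47-fold, *Cbx2* 3.04-fold and *Cbx7* 28.1-fold.

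Steps within each series of clones show where these levels moved, though a step also includes the isolation of a new clone wherever a mutation was added. From *E2* to *E1E2*, the 4-OHT treatment within 1 clone, *Jarid2* fell by 0.52 (adjusted p = 0.00214) and *Cbx7* rose by 0.64 (adjusted p = 0.00523), where 11.9% of all genes passed. Neither was stable: without *E2* replicate 2, *E1E2* replicate 1 or *E1E2* replicate 2 the adjusted p of *Jarid2* was 0.0225, 0.0139 and 0.0102, and that of *Cbx7* was 0.0585, 0.0196 and 0.0255, with 0.016 without *E2* replicate 1. *Cbx7* also missed the threshold with DESeq2 (0.64, adjusted p = 0.0104) with no filter on low counts (0.63, adjusted p = 0.0128) and with only the 6 libraries compared (0.64, adjusted p = 0.0337). By the test of the difference between backgrounds, the change with 4-OHT differed between this clone and the parent line for 2 of the 10 genes, *Jarid2* and *Ring1*, against 8.88% of all genes. *Ring1* passed in this step only without *E2* replicate 3 (-0.44, adjusted p = 0.00166). The next step, from *E1E2* to *E1E2 G9Gl*, changed 7 genes (53.4% of all genes passed). *Ring1* rose by 1.18 (adjusted p = 1.7e-10) and *Cbx7* by 0.80 (adjusted p = 4.1e-05), while *Eed* fell by 0.68 (adjusted p = 5.4e-08), *Rnf2* by 0.58 (adjusted p = 4.0e-06) and *Suz12* by 0.39 (adjusted p = 9.4e-08). *Jarid2* (0.40, adjusted p = 0.00448) and *Cbx2* (-0.38, adjusted p = 0.00934) passed as well. The *Jarid2* call was lost without either of replicates 1 and 2 of *E1E2* or of *E1E2 G9Gl* (adjusted p 0.0149 to 0.0212), and the *Cbx2* call without any 1 of the 6 libraries (adjusted p 0.0109 to 0.0394), with RLE factors (0.0159), with DESeq2 (0.0123) and with a mean count above 100 (0.0268).

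From *E1E2 G9Gl* to *6KO2*, the step that adds the Suv39h mutations, *Cbx7* fell by 1.96 (SE 0.16, adjusted p = 4.8e-10), and *Ring1* fell by 0.48 and *Bmi1* by 0.29, whereas *Eed* rose by 0.39 (4 genes, against 43.6% of all genes). *Ezh1* passed in this step only without *6KO2* replicate 3 (0.31, adjusted p = 0.00743). With only the 6 libraries compared, *Jarid2* (-0.30, adjusted p = 0.00587), *Cbx2* (-0.32, adjusted p = 0.00601) and *Rnf2* (0.23, adjusted p = 0.00311) passed as well. In the other series, from *E1* to *E1 S1S2*, *Cbx7* also fell by 1.96 (SE 0.28, adjusted p = 4.7e-06), and *Ezh1* rose by 0.56 (adjusted p = 1.2e-05), where 33.5% of all genes passed. The other 2 calls there were *Cbx2* (0.40, adjusted p = 0.00775) and *Ezh2* (-0.17, adjusted p = 0.00916). *Jarid2* also passed with only the 6 libraries compared (-0.31, adjusted p = 0.00632), and *Ring1* with a mean count above 100 (0.31, adjusted p = 0.00722). The *Ezh2* call was lost without any 1 of the 6 libraries (adjusted p 0.0141 to 0.0556) and with RLE factors, factors from genes and repeats, other filters or only those 6 libraries (0.0135 to 0.145) and the *Cbx2* call without any but *E1* replicate 1 (adjusted p 0.0119 to 0.0587). The change over this step differed between both starting lines for 5 of the 10 genes, against 39.2% of all genes, and the difference for *Cbx7* was 0.00083 (SE 0.35, adjusted p = 0.986).

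From *E1 S1S2* to *6KO1* 9 genes changed, against 53.4% of all genes. *Rnf2* was not called, but passed with only the 6 libraries compared (-0.15, adjusted p = 0.00926). *Cbx7* rose by 1.67, *Ezh1* by 0.71, *Jarid2* by 0.63, *Ring1* by 0.49 and *Eed* by 0.40, and *Cbx2* fell by 1.60, *Bmi1* by 0.71 and *Suz12* by 0.31, each with an adjusted p of 6.5e-05 or less. *Ezh2* rose by 0.20 (adjusted p = 0.00211), but not without *E1 S1S2* replicate 3, *6KO1* replicate 1 or *6KO1* replicate 2 (adjusted p 0.0184, 0.0184 and 0.0344) and not with no filter on low counts (0.14, adjusted p = 0.138) or factors from genes and repeats (0.14, adjusted p = 0.0228). The pair of lines with the same 6 genes mutated differed in 6 of the 10 genes (49.2% of all genes passed). In *6KO2* against *6KO1*, *Cbx7* was higher by 1.14 (adjusted p = 6.2e-05) and *Cbx2* by 0.78 (adjusted p = 3.1e-05). *Ezh1* was lower (-0.71, adjusted p = 1.4e-07), as were *Jarid2* (-0.63, adjusted p = 4.9e-05), *Eed* (-0.50, adjusted p = 4.6e-06) and *Rnf2* (-0.49, adjusted p = 3.6e-05). *Suz12* (0.955, 95% interval of the fold 0.894 to 1.02) and *Ezh2* (0.952, 0.883 to 1.03) did not pass.

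Other subunits of both complexes were taken as lists. Of 9 PRC2 partners, such as the histone-binding *Rbbp4* and the Polycomb-like *Mtf2*, there were 5 rises and 3 falls in *6KO1*, 4 of each in *6KO2* and 3 of each in *E1E2 G9Gl*. Of all genes, 35.9%, 29.5% and 30.9% rose and 30.3%, 25% and 28.3% fell in these lines. The medians of the list were 0.4, -0.097 and -0.037 (all genes 0.061, 0.041 and 0.0089). 1 of the 9 partners changed at least 2-fold in the same direction in both 6KO lines. *Epop*, which links PRC2 to elongins, read 256.0 ± 42.2 for WT, 40.7 ± 4.41 for *6KO1*, 53.1 ± 7.95 for *E1E2 G9Gl* and 83.2 ± 3.03 for *6KO2* (SD, n = 3). Its log2 fold changes were -2.65, -2.26 and -1.62 (adjusted p = 1.2e-13, 2.4e-12 and 4.2e-10). In *E1* it rose instead, by 0.51 (adjusted p = 0.00213).

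Of 21 PRC1 partners tested (22 listed), *6KO1* had 8 rises and 7 falls, where 35.9% of all genes rose and 30.3% fell. *E1E2 G9Gl* had 7 and 6 (30.9% and 28.3%), and *6KO2* 6 and 8 (29.5% and 25%). The medians of the list were -0.011, 0.085 and -0.11 (all genes 0.061, 0.0089 and 0.041). *Scml2*, a Polycomb gene best known from the male germline, was the 1 gene with a 2-fold rise in both 6KO lines. It had 0 counts in every WT library and its mean normalised count was 19.9 ± 3.8 for *6KO1*, 54.3 ± 9.14 for *E1E2 G9Gl* and 28.1 ± 8.6 for *6KO2* (SD, n = 3). Against a floor of 3 counts per WT library these are at least 6.71-fold, 18.4-fold and 9.49-fold higher, and its log2 fold change is not quoted because it depends on the prior count. *E1* and *E1E2* also had 0 counts. Of the H2A deubiquitinase genes (*Bap1* and partners, 5 tested), 1 rose and 2 fell in *6KO1* and 1 rose and 0 fell in *6KO2*. Of the 2 lysine 27 demethylase genes 1 rose in each of these lines. Both stand against the same shares of all genes, 35.9% and 30.3% in *6KO1* and 29.5% and 25% in *6KO2*.

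Classical Polycomb targets moved both ways. The list held 44 genes, developmental regulators and *Cdkn2a* of the *Ink4a/Arf* locus, and 24 of them had enough counts. *6KO1* had 5 rises and 13 falls, where 35.9% of all genes rose and 30.3% fell, and *E1E2 G9Gl* 7 and 12 (30.9% and 28.3%). *E1 S1S2* had 2 and 10 (19.9% and 21.9%) and *6KO2* 6 and 7 (29.5% and 25%). The list's medians in these 4 lines were -0.45, -0.3, -0.23 and -0.013, against 0.061, 0.0089, -0.0048 and 0.041 over all genes (the last of the list's being -0.054 with the 3 genes at 0 in WT set to their lower bound). *E1*, *E2* and *E1E2* had 2, 4 and 4 rises (6.72%, 12.5% and 16.3% of all genes) and 2, 3 and 5 falls (6.6%, 14.4% and 16.9%). *Tbx5*, a limb and heart regulator, read 245.7 ± 24.4 in WT, 8.28 ± 3.71 in *6KO1* and 85.7 ± 19.4 in *6KO2* (log2 fold changes -4.85 and -1.51, adjusted p = 5.1e-15 and 2.0e-08). *Tbx2*, a T-box repressor, read 13.5 ± 7.13, 175.7 ± 29.3 and 60.8 ± 3.08 in the same conditions (3.73 and 2.20, adjusted p = 1.9e-12 and 2.4e-07). *Lhx2*, a forebrain and limb regulator, had 0 counts in WT. Its mean was 35.7 ± 8.05 for *E1E2 G9Gl* and 7.91 ± 3.22 for *6KO2*, at least 12.1-fold and 2.67-fold above the floor, and 3.35 ± 2.16 in *6KO1*, close to the floor. Histone marks were not analysed here.

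Proliferation genes, given because *Ezh2* is read with them, showed 6 rises and 11 falls of 22 in *6KO1*, where 35.9% of all genes rose and 30.3% fell. *6KO2* had 3 and 13 (29.5% and 25%), *E1E2 G9Gl* 6 and 7 (30.9% and 28.3%) and *E1 S1S2* 5 and 7 (19.9% and 21.9%). The list's medians in these lines were -0.22, -0.3, 0.027 and -0.081, against 0.061, 0.041, 0.0089 and -0.0048 over all genes. In *E1*, *E2* and *E1E2* there were 6, 6 and 5 rises (6.72%, 12.5% and 16.3% of all genes) and 1, 2 and 3 falls (6.6%, 14.4% and 16.9%). *Foxm1*, a cell cycle transcription factor, was the gene with a 2-fold call in both 6KO lines and rose in 7 of 7 mutants, from 1530 ± 250.1 in WT to between 3434 and 4794. Of 11 fibroblast markers tested, 10 fell in *6KO1*, against 30.3% of all genes. Summed fibroblast markers ran from 7048 to 9047 CPM in WT, while *6KO1* had 4203 to 4801, *E1E2 G9Gl* 9159 to 9969 and *6KO2* 6054 to 6224. In *E1*, *E1 S1S2* and *E1E2* these sums lay between 6013 and 7100, and in *E2* none was below 6674 or above the WT range. Summed blood and macrophage markers were 3.64 to 4.29 CPM in WT. In *6KO1* they were 21.4 to 24.3, of which *Cd68* gave a mean of 19.4. In *E1E2 G9Gl* they were 24.5 to 25.8, of which *Itgam* gave 20. They were 2.13 to 6.01 in the other 5 mutants, and *Adgre1* was at 0 in every condition. Epithelial markers were 1.31 to 1.98 in WT, 25.9 to 27.4 in *6KO1*, 23.2 to 24.5 in *6KO2*, 12.2 to 12.9 in *E1E2 G9Gl*, 10.2 to 12.6 in *E1 S1S2* and 5.02 to 11.2 in *E1*, *E2* and *E1E2*. These sums were mostly keratins, with *Krt8* and *Krt14* at means of 16.7 and 9.71 in *6KO1* and 3.9 and 19.5 in *6KO2*. *Epcam* went the other way, from 0.436 in WT to 0.0578 in *6KO1* and 0.0737 in *6KO2*. *Cdh1*, *Krt18* and *Krt5* had means of at most 0.303 in any condition. Muscle markers were 2.26 to 2.49 in WT, 13.4 to 14.6 in *6KO1*, 13 to 13.5 in *E1E2 G9Gl* and 2.07 to 5.46 in the others. *Des* gave means of 12.7 in *6KO1* and 11.8 in *E1E2 G9Gl*, while *Myod1* and *Myog* had means of at most 0.359 in any condition. Endothelial markers were 0.469 to 0.589 in WT, 4.79 to 5.52 in *6KO1*, 3.96 to 5.45 in *6KO2*, 2.66 to 3.47 in *E1E2 G9Gl* and 0.319 to 1.48 in the others. In *6KO2* 4 of 4 rose, against 29.5% of all genes, though *Pecam1* and *Tek* had means of only 0.84 and 0.32 there. In *6KO1* 3 of 4 rose (35.9% of all genes), in *E1E2 G9Gl* 2 (30.9%) and in *E1 S1S2* 1 (19.9%). Pluripotent markers were at most 0.716 in any library, and neural markers lay between 447 and 896, with *Sox10* at or near 0. The neural sums were mostly *Nes*, with means of 408 to 767, and *Tubb3*, with means of 21.2 to 132. *Gfap* had means of at most 0.34. The part of these differences in the Polycomb results was not tested.

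For the 5 genes with a 2-fold call in any mutant, the genes with the most similar profile over the 8 condition means of log2 CPM were looked up, as a description over means that share clones and depth. *Rnf2* was nearest to *Zc3h14* (Pearson r = 0.994), *Stxbp4* (0.981) and *Gm27288* (0.976), and *Ring1* to *Paqr4* (0.989), *Borcs5* (0.984) and *Tspan17* (0.982). *Cbx2* was nearest to *Foxd1* (0.990), *Arhgef19* (0.980) and *Pkdcc* (0.979). *Cbx7* had lower values, *Keap1* (0.963), *Htatip2* (0.950) and *Mlkl* (0.942), and *Ezh1* was nearest to *Map4k2* (0.988), *Ypel3* (0.988) and *Mir1893* (0.987). Pearson r compares the shape of a profile and not its size. In *E1E2 G9Gl* the log2 fold change from WT was -0.305 for *Zc3h14* and -1.18 for *Stxbp4*, with *Rnf2* at -1.27. It was 0.577 for *Keap1* and 3.31 for *Htatip2*, with *Cbx7* at 4.25.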

How the data were processed

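Stranded total RNA libraries were made from 24 samples, and per the labels and the study's methods the authors trimmed reads with cutadapt 1.8.1, aligned them to GRCm38 with STAR 2.5.2b and counted genes and repeats with TEtranscripts, which shares reads that map to several places. The deposited values are raw counts per gene and per repeat, with 47937 gene entries and 1445 repeat entries, and 1 malformed line was left out. Strand use in counting is not given in the sources used here. Symbols were matched for 47224 identifiers.

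Genes were fitted together over all 8 conditions with edgeR 4.0.16 (R 4.3.3, TMM factors, quasi-likelihood test, Benjamini-Hochberg adjustment over the 18565 genes that passed the filter on low counts), and 13 comparisons were read from that fit at an adjusted p of at most 0.01. Fold intervals (95%) use the moderated degrees of freedom (16 plus 6.33). On data simulated for *6KO1* against WT over 18565 genes, edgeR called 164 of 200 changed genes with 1 false call, and DESeq2 1.42.0 156 with 3. The simulation had only these 200 genes changed and no outlying library, whereas 66.3% of genes were called in the data. Its rate of false calls therefore does not carry over to the data. Alternatives were RLE factors, other filters, DESeq2, a 2-fold minimum, an adjusted p of 0.05, fits of only the 6 libraries compared, a replicate block and each library left out in turn. Interaction contrasts between backgrounds were added after seeing the data. Sequences are RefSeq's, for GRCm38.p6, and exon positions are GENCODE vM21's.

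The members and lists were chosen with earlier results of these data known. Genes picked from the lists of partners, targets and proliferation had a 2-fold call in the same direction in both 6KO lines. Genes named as similar had the 3 highest correlations with a member that had a 2-fold call. Outside these rules, the text names the targeted genes, cell type markers, *Cbx6*, genes that share exons with a member and examples of the lists. Replicates share a clone, so p-values measure the spread between cultures of 1 clone.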

Additional observations from a re-analysis of the deposited data

Results flagged for a closer look

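The change from untreated to 4-OHT-treated cells differed between the *Eset2*-mutant clone and the parent line for 2 of the 10 genes, by the interaction contrast in edgeR (8.88% of all genes passed). The difference, clone minus parent, was -0.80 on the log2 scale for *Jarid2* (SE 0.16, adjusted p = 0.00111) and -0.62 for *Ring1* (SE 0.14, adjusted p = 0.00286). The *Ring1* difference did not pass without *E2* replicate 2 (-0.56, adjusted p = 0.0106) or without *E1E2* replicate 2 (-0.57, adjusted p = 0.0111).

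The step that adds the *Suv39h1* and *Suv39h2* mutations differed between *E1E2 G9Gl* and *E1* as starting lines for 5 of the 10 genes, where 39.2% of all genes passed. The difference, on *E1E2 G9Gl* minus on *E1*, was 0.58 for *Eed* (SE 0.11, adjusted p = 9.8e-05), -0.75 for *Ring1* (SE 0.13, adjusted p = 4.1e-05), -0.73 for *Cbx2* (SE 0.17, adjusted p = 0.00133) and -0.43 for *Bmi1* (SE 0.1, adjusted p = 0.00136). For *Ezh2* it was 0.26 (SE 0.074, adjusted p = 0.00497), and this did not pass with RLE factors (0.22, adjusted p = 0.013), with no filter on low counts (0.24, adjusted p = 0.0869) or without any 1 of 6 of the 12 libraries, namely E1 replicate 2, E1 replicate 3, E1 S1S2 replicate 3, E1E2 G9Gl replicate 2, E1E2 G9Gl replicate 3, 6KO2 replicate 3 (adjusted p 0.0104 to 0.0323). Both contrasts compare clones as well as genotypes, which cannot be told apart.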

How the results depend on the processing

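Of 1276 alternative values for 98 member values, 1170 kept direction and side of the threshold, 78 lost the call, 19 gained it and 9 changed sign. With a 2-fold minimum the count of members called against WT was 0 for *E1 S1S2*, 1 each for *E1*, *E2* and *E1E2*, 2 for *6KO2*, 3 for *E1E2 G9Gl* and 4 for *6KO1*. In the steps it was 1 from *E1* to *E1 S1S2* (8.06% of all genes), 2 from *E1 S1S2* to *6KO1* (21.3%), 0 from *E2* to *E1E2* (2.97%), 1 from *E1E2* to *E1E2 G9Gl* (21.6%), 1 from *E1E2 G9Gl* to *6KO2* (16.3%) and 1 between the 6KO lines (16.9%). Fits of only the 6 libraries compared gave 1 in *E1* (4.94%), 2 each in *E1 S1S2*, *E2* and *E1E2* (27.1%, 7.6% and 17.1%), 1 from *E2* to *E1E2* (10.9%) and 7 from *E1E2 G9Gl* to *6KO2* (55.7%). An adjusted p of 0.05 gave 4 in *E1* (20.8%) and 8 from *E1E2 G9Gl* to *6KO2* (55.1%). A mean count above 100, which leaves *Cbx7* without a value, gave 1 in *E1* and 1 from *E2* to *E1E2* (16.8% each), where DESeq2 (13.7%) and no filter on low counts (7.49%) also gave 1. Leaving out 1 library gave 2 to 3 calls from *E1* to *E1 S1S2* and 0 to 3 from *E2* to *E1E2*.

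*Ezh2* against WT changed sign within its error: in *6KO2* it was -0.019 with factors from genes and repeats, -0.016 with no filter and -0.038 to 0.073 without 1 library, in *E2* -0.035 to 0.077 and in *E1E2* -0.085 to 0.026 without 1 library. The cause was not tested. Same-numbered replicates did not deviate together (r -0.291 to 0.24, 12 of 24 libraries nearest their own number). With a replicate block, *Cbx2* from *E1E2* to *E1E2 G9Gl* lost its call (-0.38, adjusted p = 0.011), and the block changed no other member's call. *Cbx7* in WT rests on 7 to 9 counts a library, which limits its folds.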
